A study of Mus musculus with 47 samples.

Results

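A set of 9 genes that mark the nerve-muscle synapse and the muscle's response to losing its nerve was followed in gastrocnemius, the large calf muscle. They are the acetylcholine receptor subunit genes Chrna1, Chrnb1, Chrnd, Chrne and Chrng, the receptor kinase gene Musk, the transcription factor genes Myog and Runx1, and the adhesion molecule gene Ncam1. The genes were chosen by name from the 24391 genes in the muscle count table, by a rule that uses no measured value. The set was drawn up with earlier results of these data known. All 9 had reads in muscle. Of these, 8 passed the low-count filter and were tested among 13283 genes, and Chrng did not pass it.

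The libraries came from C57Bl6 mice, and their tissues were taken on day 21. The NTB group bore no tumour, and its labels give it no antibody. The IgG1 group bore tumours of HT1080, a human fibrosarcoma cell line, and received an IgG1 control antibody. The 3P10 group also bore HT1080 tumours and was treated with 3P10, which targets GFRAL, the hindbrain receptor of the secreted factor GDF15. The dose of either antibody was 3 mg/kg each week. IgG1 against NTB therefore joins the tumour with the control antibody, and 3P10 against IgG1 compares the antibodies in tumour-bearing mice. Each group had 5 muscle libraries. Age, sex and the immune status of these hosts of human cells are not given. Nothing in the labels says that the libraries of a group came from separate animals, so p-values measure only the spread between these libraries.

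The adult muscle acetylcholine receptor is a pentamer of alpha, beta, delta and epsilon subunits packed under the nerve ending. In the fetal receptor a gamma subunit, encoded by Chrng, stands in place of epsilon. Nerve-derived agrin acts through LRP4 and the kinase MuSK to gather receptors with the scaffold protein rapsyn. When a muscle loses its nerve, the genes for the alpha and gamma subunits, MuSK, myogenin, RUNX1 and NCAM are known to be switched on along the whole fibre, while the epsilon gene stays tied to the nuclei under the synapse.

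The DNA just before a RefSeq start of 3 of the receptor genes holds motifs of the kind bound by myogenic factors. It is printed for the alpha gene, which had the smallest unadjusted p of the 8 tested genes in IgG1 against NTB, and for the epsilon and gamma genes of the adult and fetal receptor. Sequences are RefSeq promoter windows of GRCm38.p6, written 5′ to 3′ on the gene's strand, from 250 to 31 bases before the start. Capitals mark E-boxes (CANNTG, a site type of myogenin and its relatives) and, in Chrne alone of these stretches, an N-box (CCGGAA on either strand, a site type of ETS factors).
Chrna1, chr2:73580369-73580588, minus strand: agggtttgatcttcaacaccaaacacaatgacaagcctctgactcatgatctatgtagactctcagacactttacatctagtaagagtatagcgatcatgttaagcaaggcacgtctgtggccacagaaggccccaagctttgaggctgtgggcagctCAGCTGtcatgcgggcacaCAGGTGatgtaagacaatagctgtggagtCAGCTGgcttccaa
Chrne, chr11:70619225-70619444, minus strand: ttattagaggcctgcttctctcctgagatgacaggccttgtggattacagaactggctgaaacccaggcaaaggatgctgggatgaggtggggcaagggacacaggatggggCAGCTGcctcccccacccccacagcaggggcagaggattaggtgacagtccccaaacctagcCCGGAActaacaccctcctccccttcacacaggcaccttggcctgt
Chrng, chr1:87205561-87205780, plus strand: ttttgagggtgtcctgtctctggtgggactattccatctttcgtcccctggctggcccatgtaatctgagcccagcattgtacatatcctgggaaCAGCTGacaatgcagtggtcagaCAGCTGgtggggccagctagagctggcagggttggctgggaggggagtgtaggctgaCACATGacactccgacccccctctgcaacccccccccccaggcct
The Chrna1 stretch holds E-boxes beginning 92, 73 and 44 bases before the start. The Chrne stretch holds 1 E-box at 138 bases and 1 N-box at 76 bases. The Chrng stretch holds E-boxes at 155, 132 and 75 bases, and lies within an intron of another GENCODE transcript of the gene. RefSeq windows were matched for 7 of the 9 genes, with Chrnd and Ncam1 the genes without one. In whole windows of 250 bases, Chrnb1 and Musk held 3 E-boxes each and Myog held 2. Runx1 had 2 windows, one with 3 E-boxes and one with an N-box and no E-box. Of all 32851 windows of this length, 66.2% held an E-box, 31.8% held at least 2 and 12% held an N-box. The matches describe these letters only.

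Muscle libraries held 24.8 to 33.5 M counts, where M stands for 1000 × 1000. Levels are given as CPM, the reads of a gene per M reads of the scaled library, and a count of 0 allowed up to 3 counts, which is 0.0838 to 0.143 CPM. Skeletal muscle markers summed to between 79800 and 110000 CPM in every group, and 0 of those 10 genes was without reads. Library titles carry numbers from S17 to S31. The 4 libraries numbered S28 to S31, which are NTB 3, IgG1 2, IgG1 4 and 3P10 2, stood apart from the other 11 on the first principal component, which held 42.3% of the variance. They held relatively more reads of short transcripts: the median log2 deviation of transcripts under 1000 bases minus that of transcripts over 5000 bases was 0.72 to 1.24 in them, and -0.52 to -0.04 in the others. Of all genes tested, 25.1% did not overlap between these 4 libraries and the rest. What the numbers stand for is not given. Values without these libraries, or with a term for them, are given beside the results they moved most.

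None of the 8 tested genes passed the test of a difference between groups. At an adjusted p under 0.05 (edgeR's quasi-likelihood test, Benjamini-Hochberg over all genes tested), 0 of 8 were called in IgG1 against NTB, where 5.6% of all genes were called. In 3P10 against IgG1 0 of 8 were called against 0.211% of all genes, and in 3P10 against NTB 0 of 8 against 0%. Unadjusted p was under 0.05 for 3 of the 8 in IgG1 against NTB (Chrna1, Ncam1 and Chrne), for 1 in 3P10 against IgG1 (Chrna1) and for 0 in 3P10 against NTB. The same shares over all genes were 20.8%, 10.8% and 4.24%. DESeq2 also called 0 of the tested genes in each comparison. The median log2 fold change of the 8 was -0.12 in IgG1 against NTB, 0 in 3P10 against IgG1 and -0.06 in 3P10 against NTB, beside 0.01, -0.02 and 0 over all genes. For no tested gene were the 5 libraries of one group all above or all below those of another, where 6.38%, 2.44% and 1.53% of all genes were so. The comparisons share libraries, so their values are set side by side and not joined.

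**Figure D1:**
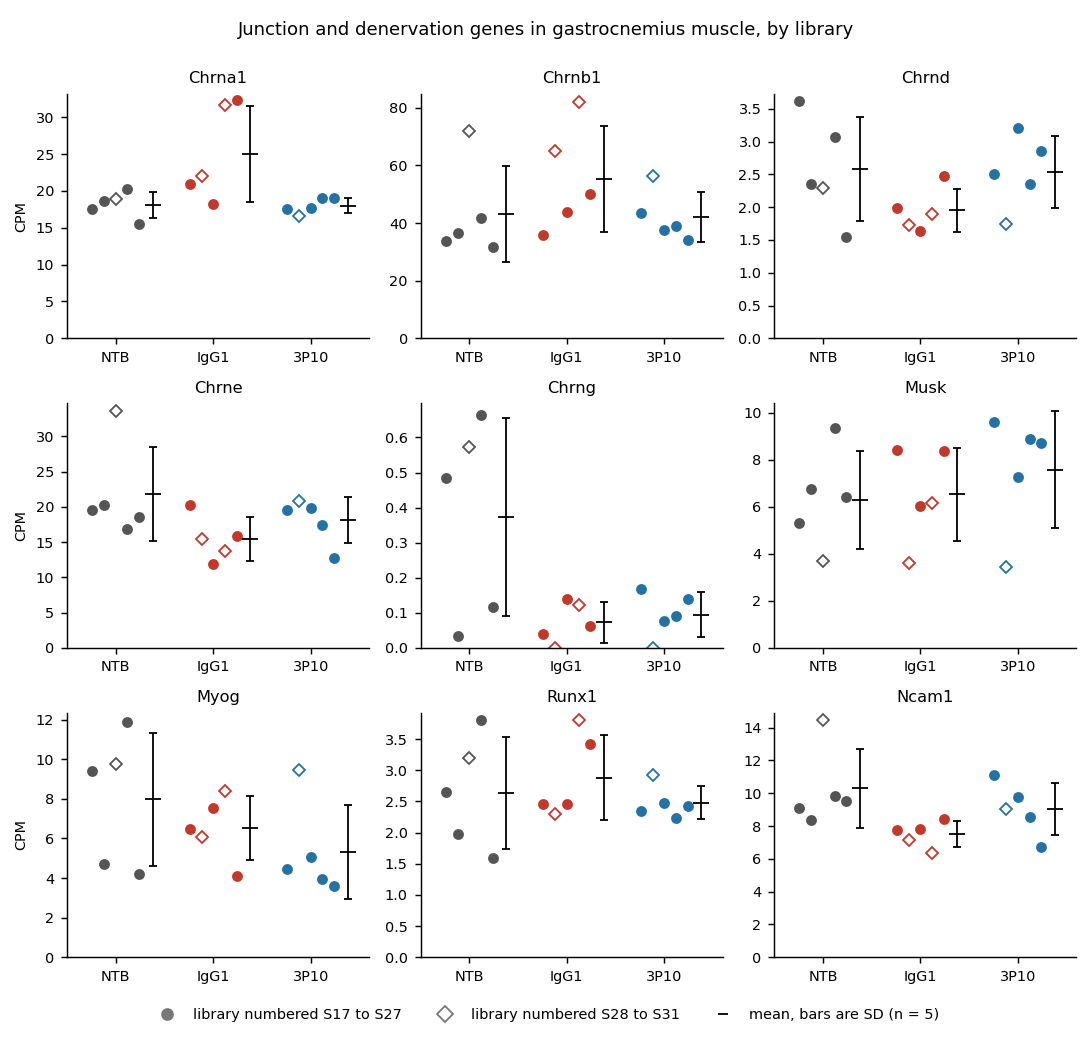
CPM (vertical axis, from 0) of each of the 9 genes in the 15 muscle libraries by group; points are libraries, open diamonds are those numbered S28 to S31, and black marks are group means with SD (n = 5). The groups overlap for the 8 tested genes, IgG1 4 and IgG1 5 are highest for Chrna1, NTB 3 stands above its group for Chrnb1, Chrne and Ncam1, and NTB 1, NTB 3 and NTB 4 hold the highest Chrng values.

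Chrna1 encodes the alpha subunit, which carries most of the acetylcholine binding site. It lay at 17.5, 18.6, 18.9, 20.2 and 15.5 CPM in NTB libraries 1 to 5. In the IgG1 libraries it lay at 20.9, 22, 18.2, 31.7 and 32.3 CPM. In the 3P10 libraries it lay at 17.6, 16.6, 17.7, 19 and 19 CPM. The IgG1 libraries were all above the NTB mean, but the groups overlapped through IgG1 3, and 2 of the libraries, IgG1 4 and IgG1 5, were well above all others. Group means were 18.1 ± 1.75 in NTB, 25 ± 6.53 in IgG1 and 18 ± 1.01 in 3P10 (CPM, SD, n = 5). The log2 fold change in IgG1 against NTB was 0.46 (SE 0.15, 95% interval 0.14 to 0.79, edgeR adjusted p = 0.0883). In 3P10 against IgG1 it was -0.48 (SE 0.15, 95% interval -0.80 to -0.15, adjusted p = 0.23), with 0 of 5 libraries above the IgG1 mean. In 3P10 against NTB it was -0.01, with an interval of -0.34 to 0.31. Chrna1 was not called in IgG1 against NTB with all libraries, and leaving out single libraries moved its adjusted p to either side of 0.05. Without IgG1 3 the log2 fold change was 0.56 (edgeR adjusted p = 0.0426), and without IgG1 1 it was 0.52 (adjusted p = 0.046). Without IgG1 5 it was 0.35 (adjusted p = 0.236).

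Chrnb1 encodes the beta subunit, a structural part of the receptor. It lay at 33.9, 36.5, 72.0, 41.6 and 31.6 CPM in NTB. It lay at 36.0, 64.9, 43.8, 82.0 and 50.0 CPM in IgG1. It lay at 43.5, 56.4, 37.6, 39.1 and 34 CPM in 3P10. The high values in every group were those of libraries numbered S28 to S31. In those 4 the mean was 68.8 ± 10.8 CPM (SD, range 56.4 to 82.0) and in the other 11 it was 38.9 ± 5.42 (range 31.6 to 50.0). Chrnb1 was the one tested gene of the 8 whose levels did not overlap between these library sets. Over all genes, 13.2% were higher in the 4 libraries without overlap. IgG1 against NTB gave a Chrnb1 log2 fold change of 0.36 (SE 0.25, edgeR adjusted p = 0.447). Without NTB 3 it was 0.61 (adjusted p = 0.087), and without IgG1 4 it was 0.18 (adjusted p = 0.789). The value for 3P10 against IgG1 was -0.39 (SE 0.25, adjusted p = 0.623). With a term for the libraries numbered S28 to S31, added after seeing the data, these became 0.22 (SE 0.12, adjusted p = 0.215) and -0.21 (SE 0.12, adjusted p = 0.324). Without the 4 libraries they were 0.27 and -0.17.

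Chrnd encodes the delta subunit and was the least abundant of the tested subunits. NTB libraries held 3.62, 2.35, 2.29, 3.07 and 1.55 CPM. IgG1 libraries held 1.99, 1.73, 1.64, 1.90 and 2.47 CPM. 3P10 libraries held 2.50, 1.75, 3.2, 2.35 and 2.85 CPM. All IgG1 libraries were below the NTB mean, but both the highest and the lowest library were of NTB. Its log2 fold change was -0.40 in IgG1 against NTB (SE 0.23, edgeR adjusted p = 0.333), 0.37 in 3P10 against IgG1 (SE 0.23, adjusted p = 0.601) and -0.03 in 3P10 against NTB.

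Chrne encodes the epsilon subunit of the adult receptor. NTB libraries held 19.6, 20.3, 33.6, 16.9 and 18.5 CPM. IgG1 libraries held 20.2, 15.5, 11.9, 13.7 and 15.8 CPM. 3P10 libraries held 19.6, 20.8, 19.9, 17.4 and 12.7 CPM. NTB 3 lay far above the rest, and most IgG1 libraries lay below most NTB libraries, with IgG1 1 within them. For Chrne the log2 fold change in IgG1 against NTB was -0.50 (SE 0.20, 95% interval -0.92 to -0.08, edgeR adjusted p = 0.157). Without NTB 3 it was -0.31 (adjusted p = 0.307), and without all 4 libraries numbered S28 to S31 it was -0.24 (adjusted p = 0.453). Against IgG1, the 3P10 group gave 0.23 (SE 0.20, adjusted p = 0.755).

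**Figure D2:**
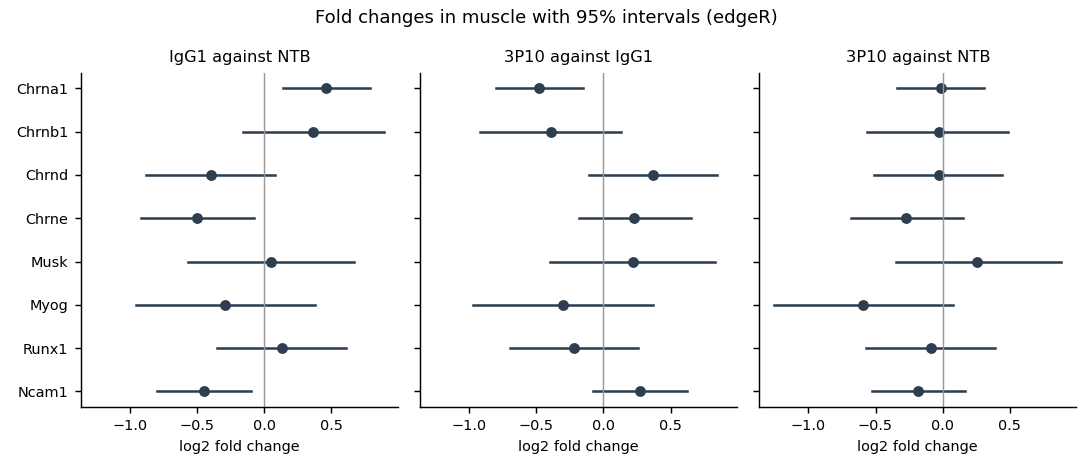
Log2 fold change (horizontal axis) of the 8 tested genes in 3 comparisons, with points for edgeR estimates and lines for 95% intervals. Intervals exclude 0 for Chrna1, Chrne and Ncam1 in IgG1 against NTB and for Chrna1 in 3P10 against IgG1, before adjustment over all genes.

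Chrng, the fetal gamma subunit gene, was close to the limit of counting. NTB libraries held 15, 1, 12, 19 and 3 reads. IgG1 libraries held 1, 0, 4, 4 and 2 reads. 3P10 libraries held 5, 0, 2, 3 and 5 reads. NTB 1, NTB 3 and NTB 4 were above all others, and NTB 2 and NTB 5 were within the range of the tumour-bearing groups. Group sums were 50, 11 and 15 reads in NTB, IgG1 and 3P10. A fit without the low-count filter gave a log2 fold change of -2.23 in IgG1 against NTB (SE 0.74, edgeR adjusted p = 0.12) and -1.88 in 3P10 against NTB (adjusted p = 0.913). DESeq2 gave -2.32 (adjusted p = 0.0537) and -1.95 (adjusted p = 0.727).

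As a share of gamma plus epsilon reads, gamma held 2.41% in NTB 1 (95% Wilson interval 1.47 to 3.94%), 1.68% in NTB 3 (0.963 to 2.91%) and 3.77% in NTB 4 (2.43 to 5.81%). It held 0.165% in NTB 2 and 0.624% in NTB 5. The share ran from 0 to 1.17% in the IgG1 libraries and from 0 to 1.08% in the 3P10 libraries, where a count of 0 allowed up to 0.836% in IgG1 2 and 0.513% in 3P10 2. Intervals and limits cover counting error only. Epsilon reads outnumbered gamma reads in all 15 libraries.

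Musk encodes the kinase that gathers receptors at the synapse. NTB libraries held 5.29, 6.75, 3.68, 9.36 and 6.42 CPM. IgG1 libraries held 8.42, 3.62, 6.02, 6.16 and 8.37 CPM. 3P10 libraries held 9.62, 3.42, 7.26, 8.88 and 8.71 CPM. The lowest value of each group was in a library numbered S28 to S31, and these 4 had 4.22 ± 1.30 CPM (SD, n = 4) against 7.74 ± 1.45 (n = 11), with overlap through IgG1 4. Musk had a log2 fold change of 0.05 in IgG1 against NTB (SE 0.29, 95% interval -0.57 to 0.67, edgeR adjusted p = 0.953) and 0.22 in 3P10 against IgG1 (SE 0.29, adjusted p = 0.883). With the term for the 4 libraries these became 0.24 (SE 0.19, adjusted p = 0.393) and 0 (SE 0.19, adjusted p = 0.996), and without the 4 libraries 0.13 and 0.18.

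**Figure D3:**
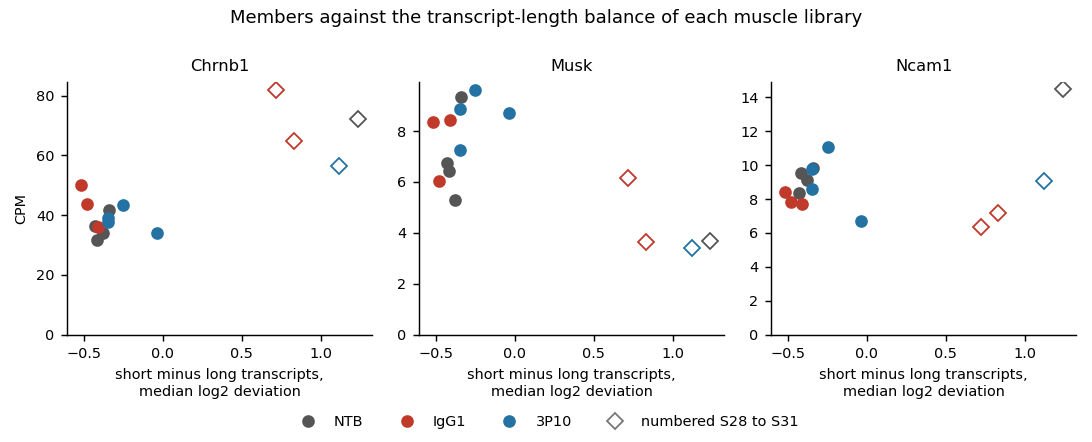
CPM of Chrnb1, Musk and Ncam1 (vertical axis, from 0) against the median log2 deviation of short minus long transcripts in each of the 15 muscle libraries (horizontal axis), coloured by group, with open diamonds for libraries numbered S28 to S31. Those 4 libraries lie to the right at 0.72 to 1.24, where Chrnb1 is at 56.4 CPM or above and Musk at 6.16 CPM or below.

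Myog encodes myogenin, a transcription factor of differentiating myoblasts that also acts in denervated fibres. NTB libraries held 9.39, 4.70, 9.74, 11.9 and 4.21 CPM. IgG1 libraries held 6.47, 6.08, 7.56, 8.4 and 4.09 CPM. 3P10 libraries held 4.44, 9.48, 5.08, 3.94 and 3.6 CPM. NTB split into 3 libraries above and 2 below most of the tumour-bearing libraries, and in 3P10 only 3P10 2 stood above the NTB mean. The log2 fold change in 3P10 against NTB was -0.59 (SE 0.32, 95% interval -1.26 to 0.08, edgeR adjusted p = 1), and without the 4 libraries numbered S28 to S31 it was -0.82 (adjusted p = 0.357). In IgG1 against NTB it was -0.29 (SE 0.32, adjusted p = 0.659), and in 3P10 against IgG1 -0.30 (SE 0.32, adjusted p = 0.841).

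The 3 NTB libraries with the most Chrng reads also had the most Myog of their group, and of all 15 libraries they held the most reads of 2 fusion genes of newly forming fibres. Tmem8c, which is myomaker (Mymk), had 6, 4, 24, 20 and 0 reads in NTB libraries 1 to 5. It had 2, 4, 1, 0 and 2 in IgG1 and 0, 2, 5, 1 and 1 in 3P10. Gm7325, which is myomerger (Mymx), had 8, 1, 19, 6 and 0 reads in NTB, 0, 1, 0, 5 and 3 in IgG1 and 1, 0, 1, 0 and 2 in 3P10. NTB 3 and NTB 4 stood highest for Tmem8c, and NTB 3 for Gm7325. These fusion genes were chosen after their values were seen, and the myosin heavy chain genes Myh3 and Myh8 of the same list did not follow them. Myh3, the embryonic myosin, lay at 15.8, 14, 13.9, 21.9 and 27.6 CPM in NTB libraries 1 to 5, and Myh8, the perinatal myosin, at 126, 86.5, 25.1, 90.3 and 129 CPM. For both, NTB 3 was the lowest and NTB 5 the highest of the group. The rest of the list, Myl4 and Actc1, was highest of all 15 libraries in NTB 3, at 18.7 and 168 CPM. Their highest values were 8.79 and 97.9 CPM in IgG1, and 11.9 and 83.3 CPM in 3P10. Of 6 embryonic and regenerating fibre markers, 4 were tested and 0 called in IgG1 against NTB (median log2 fold change -0.56), and their summed level was 207 to 253 CPM in NTB, 37.2 to 177 in IgG1 and 87.0 to 265 in 3P10. The part of regenerating fibres in the Chrng and Myog values was not tested.

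**Figure D4:**
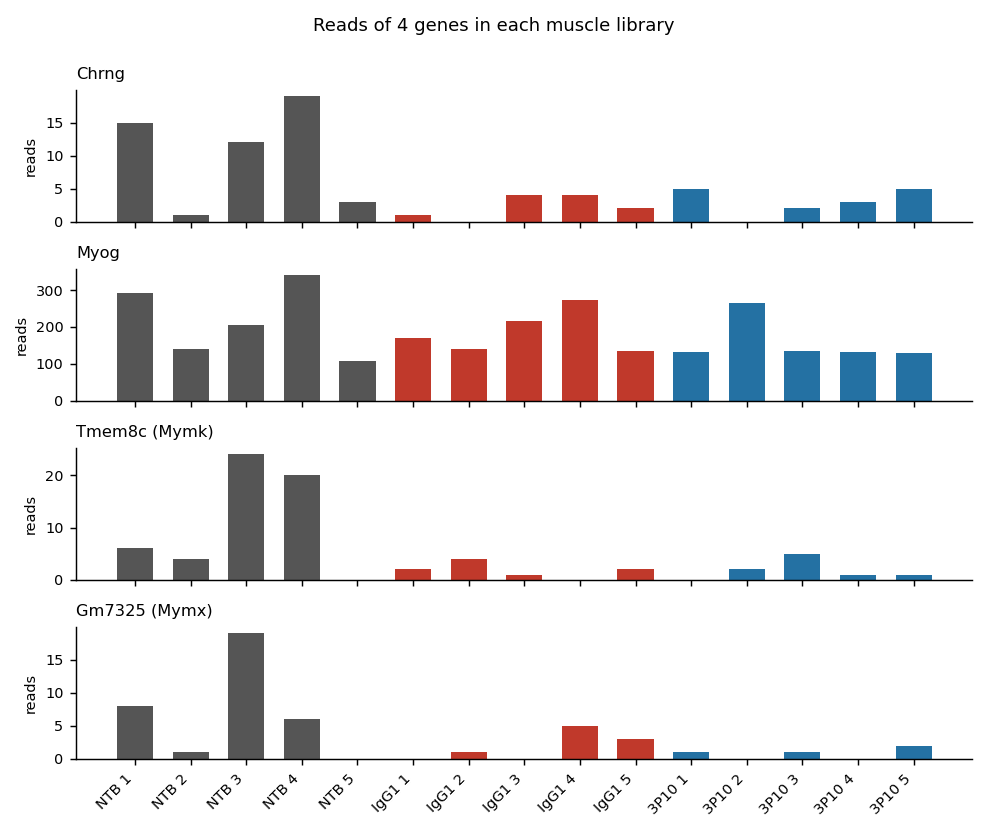
Reads (vertical axes, from 0) of Chrng, Myog, Tmem8c and Gm7325 in each of the 15 muscle libraries, in grey for NTB, red for IgG1 and blue for 3P10. NTB 1, NTB 3 and NTB 4 have 12 to 19 Chrng reads, and every other library has 5 or fewer.

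Runx1 encodes a transcription factor that protects denervated fibres from wasting. NTB libraries held 2.65, 1.98, 3.2, 3.81 and 1.59 CPM. IgG1 libraries held 2.45, 2.29, 2.45, 3.80 and 3.42 CPM. 3P10 libraries held 2.34, 2.92, 2.48, 2.23 and 2.43 CPM. The 3P10 libraries were the tightest, and NTB contained both the highest and the lowest value. Runx1 had a log2 fold change of 0.13 in IgG1 against NTB (SE 0.23, edgeR adjusted p = 0.803), -0.22 in 3P10 against IgG1 (SE 0.23, adjusted p = 0.829) and -0.09 in 3P10 against NTB. Leukocytes also express Runx1, and the 13 macrophage and leukocyte markers summed to 53.0 to 89.2 CPM in NTB, 56.9 to 76.4 in IgG1 and 56.7 to 93.0 in 3P10, with the lymphocyte genes Cd3e and Cd79a at 0 in NTB and Cd3e at 0 in 3P10. Of these markers, 11 were tested and 0 were called. Their part in the Runx1 values was not tested.

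Ncam1 encodes the neural cell adhesion molecule, present at synapses, on satellite cells and on Schwann cells. NTB libraries held 9.10, 8.36, 14.5, 9.82 and 9.55 CPM. IgG1 libraries held 7.73, 7.16, 7.84, 6.34 and 8.4 CPM. 3P10 libraries held 11.1, 9.05, 9.78, 8.57 and 6.70 CPM. NTB 3 stood above all others, and the IgG1 libraries lay below the NTB libraries apart from IgG1 5, which just exceeded NTB 2. The log2 fold change in IgG1 against NTB was -0.45 (SE 0.17, 95% interval -0.80 to -0.10, edgeR adjusted p = 0.126). Without the 4 libraries numbered S28 to S31 it was -0.20 (adjusted p = 0.472). The 3P10 group gave 0.27 against IgG1 (SE 0.16, adjusted p = 0.606). Schwann cell and nerve markers summed to 139 to 265 CPM in NTB, 115 to 309 in IgG1 and 111 to 281 in 3P10, and 1 of 11 tested was called, lower, in IgG1 against NTB. It was the nerve filament gene Prph (log2 -1.48, SE 0.34, edgeR adjusted p = 0.0182). Prph had few reads, 20 to 51 per NTB library and 8 to 17 per IgG1 library. Satellite cell and myoblast markers summed to 80.7 to 124, 108 to 151 and 78.0 to 132 CPM. In IgG1 against NTB 1 of 7 tested was called higher (Cdh15, log2 0.76, SE 0.14, adjusted p = 0.00472) and 1 lower (Calcr, log2 -1.69, SE 0.38, adjusted p = 0.0178). Calcr too had few reads, 7 to 29 per NTB library and 5 to 11 per IgG1 library. Over all genes, 2.68% were called higher and 2.92% lower in this comparison. The part of Schwann and satellite cells in the Ncam1 values was not tested. In whole muscle, fewer cells of a type and less RNA per cell cannot be told apart.

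A few markers of connective tissue, vessels and fibre type were called in IgG1 against NTB, where 2.92% of all genes were called lower. The 6 fibro-adipogenic markers summed to 685 to 817 CPM in NTB, 432 to 587 in IgG1 and 437 to 595 in 3P10, and 2 of them, the collagen genes Col3a1 and Col1a1, fell in IgG1 against NTB. The 5 tendon markers summed to 57.7 to 94.9, 19.2 to 53.4 and 27.6 to 68.8 CPM, and 1 fell (Tnmd, log2 -2.55, SE 0.44, edgeR adjusted p = 0.00408). Of 6 endothelial markers 1 fell (Emcn), and of 6 adipocyte markers 0 were called. Among fibre genes, 1 of 10 fast-fibre genes fell (Casq1), and 0 of 9 slow-fibre genes were called. The term for the 4 libraries numbered S28 to S31 raised these counts in IgG1 against NTB. With it, 4 of 6 fibro-adipogenic, 3 of 5 tendon and 4 of 6 endothelial markers were called lower. Of the fast-fibre genes, 4 were called lower and 1 higher, and 0 adipocyte and 0 slow-fibre genes were called. Beside these, 9.32% of all genes were called lower and 9.16% higher. The part of these tissues in the values of the 9 genes was not tested.

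The model with a term for the 4 libraries numbered S28 to S31 called 3 of the 8 genes in IgG1 against NTB: Chrna1 higher (log2 0.45, SE 0.14, edgeR adjusted p = 0.0386), Chrne lower (log2 -0.52, SE 0.17, adjusted p = 0.0439) and Ncam1 lower (log2 -0.46, SE 0.15, adjusted p = 0.0482). In that model 18.5% of all genes were called, 9.16% higher and 9.32% lower. When NTB 3 was left out as well, 0 of the 8 were called while 1372 genes were. When the 4 libraries were left out in place of the term, 0 of the 8 were called and 6.52% of all genes, with 0 of 8 beside 0.134% in 3P10 against IgG1. In 3P10 against IgG1 the term gave a Chrna1 log2 fold change of -0.46 (adjusted p = 0.0737), and 0 of 8 were called beside 5.03% of all genes. In 3P10 against NTB 0 of 8 were called beside 0.0376%.

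Compared per length, with the NTB mean divided by transcript length in kilobases (kb), the subunit genes were far from equal. Chrnb1 stood first at 20 ± 7.68 CPM per kb (SD, n = 5) and Chrne second at 13.5 ± 4.15, and these neighbours overlapped within their spread. Myog at 5.34 ± 2.25 and Chrna1 at 4.13 ± 0.398 overlapped likewise. In the 11 libraries of all groups outside S28 to S31, Chrnb1 (18 ± 2.51) and Chrne (10.8 ± 1.84) did not overlap within 1 SD, and Chrna1 (4.48 ± 1.01) came above Myog (3.98 ± 1.78). By the NTB means again, Musk (1.84 ± 0.611) and Ncam1 (1.56 ± 0.368) came after Chrna1, then Chrnd at 0.873 ± 0.269, Runx1 at 0.451 ± 0.153 and Chrng at 0.135 ± 0.101. The lengths are those of GENCODE M21 transcripts and need not be those used in counting. The Runx1 and Ncam1 exons overlap opposite-strand genes, Gm26626 by 106 bases and Gm11149 by 151 bases, and whether counting used strand is not given.

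The genes differed from each other in how they varied over the 15 libraries. Likeness was measured as the root mean square difference of z-scored log2 CPM, which is 0 for identical patterns and about 1.37 for unrelated ones. The closest pair was Chrne and Ncam1 at 0.57, which share their highest library, NTB 3. The farthest were Chrnb1 and Musk at 1.71. Among other genes, Cacng1, a calcium channel subunit gene, was nearest to Chrnb1 at 0.25, followed by Rps20 and Tut1, both at 0.33. Gabrr2 (0.49), Scn3b (0.53) and Sdad1 (0.60) were nearest to Chrna1, and Tas1r1 (0.45), Dupd1 (0.48) and Gamt (0.49) to Chrne. Sox4 (0.47), Pxylp1 (0.48) and Grap (0.62) were nearest to Myog, and Zfp641 (0.40), Cep76 (0.41) and Dalrd3 (0.41) to Musk. Nearest to Ncam1 were Acot7 (0.55), Pdzd3 (0.60) and Pms2 (0.63), and for Runx1 no gene came under 0.72 (Dtd2). Adora2a was nearest to Chrnd at 0.53. The nearest genes were the smallest of 11653 distances for each gene, a choice that by itself favours low values. All pairs share the same libraries and their depth and length balance.

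Further genes, in 2 lists, were read in the same fit. Of 23 genes for junction organisers and scaffold, 21 were tested, and in IgG1 against NTB 1 rose and 0 fell, beside 2.68% of all genes higher and 2.92% lower. It was Rapsn, the gene for rapsyn. NTB libraries held 38.6, 34.5, 36.2, 40.4 and 34.8 CPM, IgG1 libraries 61.3, 55.2, 47.6, 57.1 and 41.1, and 3P10 libraries 43.9, 41.9, 42.7, 37.1 and 40.3. IgG1 and NTB did not overlap, as was so for 6.38% of all genes, and 3P10 lay between them with overlap on both sides. The log2 fold change was 0.51 in IgG1 against NTB (SE 0.12, edgeR adjusted p = 0.0182). It was -0.35 in 3P10 against IgG1 (SE 0.12, adjusted p = 0.252). The call was lost when NTB 2 (adjusted p = 0.0555), IgG1 4 (0.0539) or the 4 libraries numbered S28 to S31 (0.0568) were left out, and in a fit of these 2 groups alone (0.0667). With the term for the 4 libraries, 3 of the 21 were called higher (Rapsn, Sntb1 and Lama5) and 3 lower (Nes, Lama4 and Etv4) in IgG1 against NTB, beside 9.16% of all genes higher and 9.32% lower.

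The other organisers were not called. Agrn, the agrin gene, had a log2 fold change of -0.02 in IgG1 against NTB. Counts per gene in whole muscle do not tell nerve-derived agrin from that of other cells. In the same comparison Lrp4, the agrin receptor gene, was at -0.15 and Dok7, the MuSK adaptor gene, at 0.07. Lrp4 and Dok7 were also lower in the libraries numbered S28 to S31 than in all others, at 9.31 to 14.8 against 15.5 to 29.1 CPM and 4.40 to 5.45 against 6.79 to 19.4 CPM, as were 11.9% of all genes. Ache, the acetylcholinesterase gene, was at -0.24, and Colq, its collagen anchor, at -0.31. In 3P10 against NTB the Ache log2 fold change was -0.35 (SE 0.21, edgeR adjusted p = 1), with the 3P10 libraries all below the NTB libraries. Of all genes, 1.53% did not overlap in that comparison. In both comparisons with 3P10, 0 of 21 were called, and with the term 1 was, lower in 3P10 against IgG1 (Sntb1).

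Of 20 other denervation-responsive genes, 18 were tested. In IgG1 against NTB 2 rose and 0 fell, beside 2.68% of all genes higher and 2.92% lower. The median log2 fold change of the 18 was 0.17 beside 0.01 for all genes. Gadd45a, a stress gene induced by denervation, held 20.7, 18, 30.5, 20.8 and 23.8 CPM in NTB, 38.6, 77.7, 42.1, 41.4 and 41.4 in IgG1, and 39.4, 35.8, 17.3, 30.5 and 37.7 in 3P10. Every IgG1 library was above every NTB library, while 3P10 spanned both. Of all genes, 6.38% did not overlap between IgG1 and NTB in either direction. Its log2 fold change was 1.08 in IgG1 against NTB (SE 0.24, edgeR adjusted p = 0.0157, and 0.0503 with the replicate block) and -0.58 in 3P10 against IgG1 (SE 0.23, adjusted p = 0.372). Fbxo32, the atrophy ubiquitin ligase atrogin-1, held 295 to 417 CPM in NTB, 417 to 1590 in IgG1 and 405 to 605 in 3P10. Its log2 fold change was 1.45 in IgG1 against NTB (SE 0.30, adjusted p = 0.0125), and 0.73 (adjusted p = 0.0382) without the 4 libraries numbered S28 to S31, 2 of which, IgG1 2 and IgG1 4, held the highest values. In 3P10 against IgG1 it was -0.93 (SE 0.30, adjusted p = 0.237), and without IgG1 1 it was called (-1.12, adjusted p = 0.0463). Fasting and wasting also raise Fbxo32, so it is no marker of nerve loss by itself.

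The other 16 tested genes of that list were not called. With the term for the 4 libraries, 3 of the 18 were called higher, Fbxo21 beside Gadd45a and Fbxo32, and 1 lower in IgG1 against NTB. Over all genes, 9.16% were called higher and 9.32% lower with the term. In IgG1 against NTB the log2 fold change of Myod1, a myogenic factor, was 0.15 (SE 0.31), and those of the histone deacetylase genes Hdac4 and Hdac9 were -0.27 (SE 0.23) and -0.68 (SE 0.31). Dach2, a repressor in the same pathway, was at -0.22 (SE 0.60). In both comparisons with 3P10, 0 of 18 were called.

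**Figure D5:**
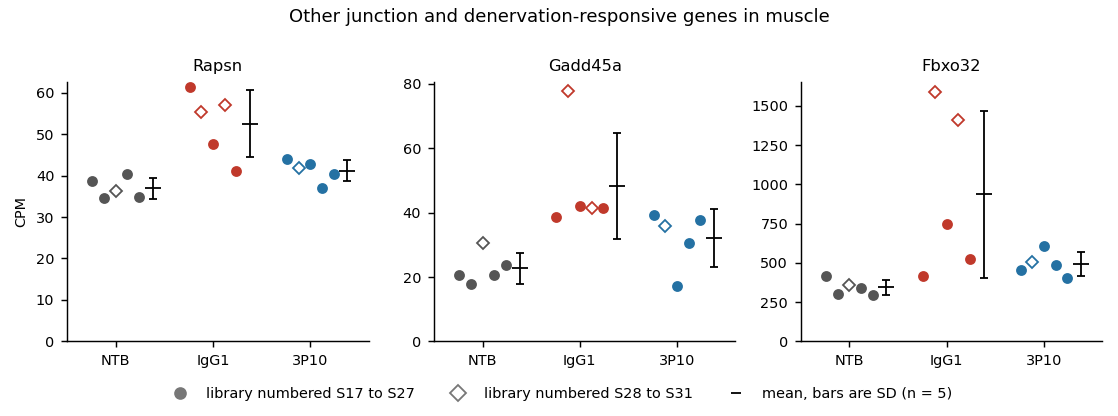
CPM (vertical axis, from 0) of Rapsn, Gadd45a and Fbxo32 in the 15 muscle libraries by group; points are libraries, open diamonds are those numbered S28 to S31, and black marks are group means with SD (n = 5). For Rapsn and Gadd45a every IgG1 library is above every NTB library, and for Fbxo32 the highest values are IgG1 2 and IgG1 4.

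Outside muscle, most of these genes were near the limit of counting. In the 15 white fat libraries Chrnb1 lay at 2.79 to 11.6 CPM, Runx1 at 4.91 to 11.7 and Ncam1 at 1.20 to 20.3. The highest level of the other 6 in any white fat library was between 0.104 CPM (Chrng) and 2.74 CPM (Chrna1). All white fat libraries also held reads of the muscle enzyme gene Ckm, at 99 to 496 CPM, and the part of muscle RNA in these values was not tested. In the 17 brown fat libraries, made with a kit that reads transcript ends, Ncam1 had 133 reads in all, Chrnb1 78 and Runx1 65. Their medians were 6.46, 4.07 and 2.97 CPM. The other 6 had 0 to 16 reads in all. Chrna1 reached 6.37 CPM there, though no library held more than 6 of its reads. Low read totals in these shallow libraries do not by themselves show low levels. CPM in fat is per M total counts, without the scaling used in muscle, and levels were not compared between tissues.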

How the data were processed

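Gastrocnemius RNA was sequenced with a directional kit. The deposited values are counts of reads per gene symbol. Per the submitters' processing notes, Trim Galore, STAR 2.6.0a, featureCounts 1.6.2, edgeR 3.22.3 and the build mm9 were used, and the annotation and strand setting are not given in the sources used here. The 15 muscle libraries were fitted with edgeR 4.0.16 in R 4.3.3, with the 3 groups in 1 quasi-likelihood model (12 residual degrees of freedom), TMM factors and filterByExpr (minimum count 10, minimum total 15). Tests were 2-sided, p was adjusted by Benjamini-Hochberg over every gene tested, and calls were made below 0.05. CPM was computed on TMM-scaled library sizes in muscle and on total counts in fat. The script was tested on simulated data. Coordinates come from GRCm38 annotation, while the counts were made on mm9. Alternatives were DESeq2 1.42.0, RLE factors, other filters, fits of 2 groups, a replicate block, each library left out, the 4 libraries numbered S28 to S31 left out, and a term for them.

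The genes, the lists, the left-out set of 4 libraries and the rule for naming genes were chosen with earlier results of these data known. Named were all 9 genes, 12 genes of the 2 further lists, members called in any comparison, and for each of the genes with a mean of at least 1 CPM the 3 genes nearest in pattern. The text gives a part of them, and 1 gene of a list is not reported here.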

Additional observations from a re-analysis of the deposited data

Results flagged for a closer look

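In 4 of 27 groups of 5 libraries, 1 library stood far from the others by Dixon's ratio (95% critical value 0.71), and chance flags about 1 group in 20. NTB 3 held 72.0 CPM of Chrnb1, where the other NTB libraries held 31.6 to 41.6. NTB 3 also held 33.6 CPM of Chrne beside 16.9 to 20.3, and 14.5 CPM of Ncam1 beside 8.36 to 9.82. Myog was at 9.48 CPM in 3P10 2, where the other 3P10 libraries held 3.6 to 5.08. Both libraries are among the 4 numbered S28 to S31.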

How the results depend on the processing

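Of 448 recomputed fold changes of the tested genes, 443 stayed past or short of the threshold as before, 5 passed it and 22 changed sign. The 5 were Chrna1 without IgG1 1 and without IgG1 3, and Chrna1, Chrne and Ncam1 with the term for libraries S28 to S31, all in IgG1 against NTB. With that term 3 of the 8 genes were called in IgG1 against NTB, and leaving out each library gave 0 to 1. All other settings gave 0 in the 3 comparisons.

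Counts over all genes moved more. IgG1 against NTB had 744 calls, and 1290 with DESeq2, 347 in a fit of these groups alone, 2455 with the term, 1372 with the term and without NTB 3, and 327 (without NTB 1) to 1307 (without IgG1 1) when each library was left out. 3P10 against IgG1 had 28 calls, and 273 with DESeq2, 7 in a fit of these groups alone, 18 without the 4 libraries, 668 with the term, and 8 (without IgG1 4) to 231 (without IgG1 1) when each library was left out. 3P10 against NTB had 0 calls, with 563 genes at an unadjusted p under 0.05, and 14 with DESeq2, 5 with the term and 0 to 0 when each library was left out. With the replicate block the counts were 418, 12 and 0, and 0 of the tested genes were called. Whether replicate numbers pair the libraries is not given, and these values do not settle it. Correlations of deviations over 15 same-numbered pairs ran from -0.60 to 0.56, and 9 were over 0.1. For IgG1 with 3P10 they were 0.33, 0.56, 0.50, -0.30 and 0.20 in numbers 1 to 5. Every negative value joined a library numbered S28 to S31 with a library outside that set. The highest, 0.56, joined IgG1 2 and 3P10 2, both within it. Of 15 libraries, 7 were closest to their own number. The block changed the call of Gadd45a (adjusted p 0.0503 in IgG1 against NTB), and of no tested gene among the 8. The causes were not tested. With 5 libraries a group the median SE of the tested genes was 0.22 to 0.23 on the log2 scale, so small differences were not detectable. Larger ones could be missed too. In the simulated data, 12% of 1.5-fold and 54% of 2-fold changes were recovered in IgG1 against NTB.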
